A study of Mus musculus with 4 samples.

Results

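The mRNAs of 10 glycolysis enzymes were followed in TSSK2 immunoprecipitates of mouse germ cells. They are the germ cell isoforms Gapdhs, Pgk2, Ldhc, Aldoart1 and Eno4, the somatic counterparts Gapdh, Pgk1, Ldha and Aldoa, and Hk1. They were chosen by name among the 21936 gene identifiers counted, as isoforms of the pathway, with earlier results of these data known, and all 10 passed the filter on low counts that left 14722 genes to test. TSSK2 is a testis-specific serine kinase found in the late chromatoid body (late-CB), an RNA and protein granule of elongating spermatids, and the comparison asked which mRNAs were recovered with it. Germ cells were released with collagenase from testes of adult C57BL/6 mice, strained, cross-linked with formaldehyde, lysed and sonicated. The pellet fraction was then immunoprecipitated with an anti-TSSK2 antibody (TSSK2-IP, 2 libraries) or with mouse IgG (control IgG-IP, 2 libraries). All 4 libraries are labelled testis, no genotype or treatment of the animals is named, and the antibody was the labelled difference between the groups. The suspension held germ cells of all stages. In the paper's co-immunoprecipitation protocol, which it also cites for these pellets, a lysate was split in equal parts for TSSK2 and IgG beads. Which of the libraries shared a lysate is not stated. Fewer cells of a type, less RNA per cell and weaker recovery were not told apart in these values. The sources used here do not say whether replicates came from separate animals, so the p-values may measure technical spread alone.

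Glycolysis turns glucose into pyruvate, and the mouse sperm flagellum draws much of the ATP for its movement from it. Several of its steps use isoforms made only in the germ line. GAPDHS and other enzymes of the pathway are bound to the fibrous sheath, the cytoskeletal sleeve of the principal piece. Pgk2 and Aldoart1 are retrogenes, intronless copies made from mRNA. The X-linked parent of Pgk2, Pgk1, is silenced with the rest of the X chromosome during meiosis. Messages such as that of Pgk2 are made in spermatocytes and translated mainly later, in spermatids.

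Because the germ cell and somatic copies resemble each other, their coding sequences were compared first. Stretches of 60 coding bases from 3 pairs are shown because they display how far a read can tell the copies apart. Capitals mark bases that differ between the members of a pair. The sequences were read from the GENCODE vM21 annotation on GRCm38, begin at the start codon for the Pgk and aldolase pairs and at the first stretch without a gap for the Ldh pair.
Pgk2: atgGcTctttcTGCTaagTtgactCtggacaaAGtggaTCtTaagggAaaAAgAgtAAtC
Pgk1: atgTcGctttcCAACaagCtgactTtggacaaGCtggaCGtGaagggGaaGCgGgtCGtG
Ldhc: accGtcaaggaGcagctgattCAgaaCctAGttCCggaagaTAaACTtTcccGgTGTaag
Ldha: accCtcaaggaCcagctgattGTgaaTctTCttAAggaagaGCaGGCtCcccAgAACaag
Aldoart1: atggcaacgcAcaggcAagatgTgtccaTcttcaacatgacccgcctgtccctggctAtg
Aldoa: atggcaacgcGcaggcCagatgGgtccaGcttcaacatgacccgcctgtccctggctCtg
These stretches differed at 20 bases for the Pgk pair, 19 for the Ldh pair and 5 for the aldolases. Over the whole coding sequence, identity was 93.9% between Aldoart1 and Aldoa, with a longest identical run of 86 bases. It was 79.3% between Pgk2 and Pgk1, 73.9% between Ldhc and Ldha and 71.5% between Gapdhs and Gapdh, with identical runs of at most 22 bases. Eno4, an enolase-family protein of sperm, was 63.0% identical to Eno1, its counterpart here.

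A different set of copies bears on the somatic enzymes. The Gapdh transcript shared stretches of at least 150 bases, at 97% identity or more, with 48 other annotated genes, and the longest such stretch was 1201 bases. Pgk1 shared such stretches with 3 other genes. How the counting treated reads that fit several places is not given in the sources used here, so the counts of Gapdh and Pgk1 are uncertain. So are those of Eno1, the counterpart of Eno4, since 1736 of its 2027 transcript bases lie in such stretches shared with 2 other genes, Eno1b among them. No such stretch was found for Gapdhs, Pgk2, Ldhc, Ldha, Aldoart1, Aldoa or Hk1. The strand setting of the counting is not given either, and exons on the opposite strand overlapped 162 of 1610 exon bases of Gapdhs, 166 of 2570 of Eno4, 157 of 8532 of Hk1, 68 of 4133 of Gapdh and 25 of 2911 of Aldoa.

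The libraries held 4158034 and 4491749 counts in TSSK2-IP and 9858941 and 3938922 in control IgG-IP. A single count was worth between 0.156 and 0.230 CPM (counts scaled by edgeR's TMM method to a common library size), and 3 counts were worth 0.468 to 0.689 CPM. The control libraries differed from each other far more than the TSSK2-IP libraries did. Among 4046 genes with a mean of at least 50 CPM, control replicate 1 was higher than control replicate 2 by a median of 0.87 on the log2 scale, and 42.6% of them were at least 2-fold higher. No gene among them differed 2-fold between the TSSK2-IP libraries. A list of 10 spermatid markers summed to 4983 and 4559 CPM in TSSK2-IP and to 11126 and 5746 CPM in control IgG-IP, and 7 spermatocyte markers to 1508, 1389, 3250 and 1580 CPM in the same order. Both sums were highest in control replicate 1, but a few genes carried them. The genes left out next were picked after their values were seen, which was bound to level the sums. Without Akap4 and Prm2 the spermatid sum was 2456 and 2310 CPM in TSSK2-IP and 2459 and 2234 CPM in control IgG-IP, and without Mael the spermatocyte sum was 1029.7, 944, 1159 and 971 CPM. Control replicate 1 was the highest library for 6 of the 10 spermatid markers and 4 of the 7 spermatocyte markers, and the lowest for 2 and 1. The median log2 fold changes of the lists were -0.05 and -0.15, and the part of Akap4, Prm2 and Mael in the enzymes' values was not tested. Marker lists of spermatogonia and of 6 other testis cell types, Sertoli cells and Leydig cells among them, summed to at most 72.8 CPM in any library, and no marker in any list passed the test.

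None of the 10 enzyme mRNAs was called higher or lower in TSSK2-IP. A call needed a 2-fold change with an adjusted p of 0.05 or less, by the quasi-likelihood test of edgeR and the Benjamini-Hochberg method over every gene tested. Of all genes tested, 0.693% (102 genes) were called higher and 0% (0 genes) lower. At an unadjusted p under 0.05, 1 of the 10, Aldoart1, was lower and 0 were higher, where 4.89% of all genes were lower and 8.34% higher. DESeq2 called 0 of the 10 in either direction. It gave no adjusted p for Gapdh, Pgk1, Aldoart1 and Eno4, so these could not be called. Of the 21267 genes it fitted, 0.0282% (6 genes) were called higher and 0% lower. Genes without an adjusted p were counted there as not called. At an unadjusted p under 0.05, DESeq2 had 5 of the 10 lower and 0 higher, beside 5.65% and 4.02% of all its genes. Fold changes were negative for 9 of the 10, where 7479 of all 14722 genes tested were negative. The median log2 value was -0.84 for the 10 against -0.02 over all genes tested. For 6 of the 10, both TSSK2-IP libraries lay below both control libraries, compared with 21.6% of all genes, and for 0 of the 10 above both, compared with 27.3%. Control replicate 1 exceeded replicate 2 by at least 2-fold for 7 of the 10, and the median log2 difference between the control libraries was 1.12 for the enzymes and -0.17 over all genes tested. All of the 10 but Gapdh and Pgk1 had a mean of at least 50 CPM. Over the 4046 genes at that level the median was 0.87, and 42.6% were at least 2-fold higher in control replicate 1. The fold changes between the groups were not set against genes of like level. For 8 of the 10 the highest library of the 4 was control replicate 1, a share not computed over all genes.

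**Figure D1:**
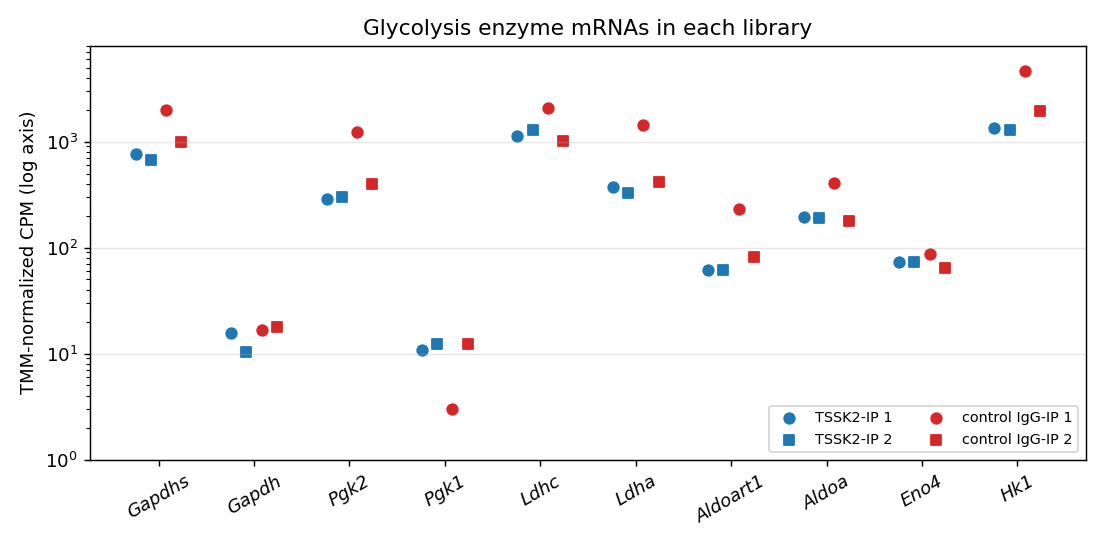
TMM-normalized CPM (log axis) of the 10 enzyme mRNAs, with TSSK2-IP libraries in blue, control IgG-IP libraries in red, circles for replicate 1 and squares for replicate 2. For most enzymes both TSSK2-IP points and control replicate 2 lie close together, and control replicate 1 stands above them, with Pgk1 at 2.96 CPM as the opposite case.

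Hexokinase, which traps glucose as its phosphate, opens the pathway. Hk1 (ENSMUSG00000037012, chr10:62268855-62379908, minus strand, GRCm38, as for all positions here) was at 1334 and 1277 CPM in TSSK2-IP and at 4630 and 1926 CPM in control IgG-IP. Both TSSK2-IP libraries were below both controls, but the controls differed 2.40-fold from each other. The log2 fold change was -1.33 (SE 1.05, adjusted p = 0.573). Germ cells make their own Hk1 transcripts with a different first exon, which counts per gene do not separate from the somatic ones.

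Aldolase splits fructose 1,6-bisphosphate into a pair of triose phosphates. Aldoart1 (ENSMUSG00000059343, chr4:72850583-72852634, minus strand, 1 exon) was at 61.4 and 61.7 CPM in TSSK2-IP and at 232 and 80.6 CPM in control IgG-IP. The TSSK2-IP libraries were nearly equal and lay below both controls. Its log2 fold change of -1.35 (SE 0.53) had the smallest p of the 10, and the adjusted p was 0.316. Aldoa (ENSMUSG00000030695, chr7:126795234-126800751, minus strand), the muscle and general isoform, was at 194 and 190.3 CPM in TSSK2-IP and at 411 and 178 CPM in control IgG-IP. Here the groups overlapped, since control replicate 2 was the lowest library, and the log2 fold change was -0.61 (SE 0.58, adjusted p = 0.647). A second identifier that the annotation also names Aldoa (ENSMUSG00000114515) lies 38 bases upstream. It was at 20.7 and 15.6 CPM in TSSK2-IP and at 18.7 and 10.3 CPM in control IgG-IP, with a log2 fold change of 0.31 (SE 0.44, adjusted p = 0.779).

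Glyceraldehyde-3-phosphate dehydrogenase makes the first NADH of the pathway. Gapdhs (ENSMUSG00000061099, chr7:30729775-30743681, minus strand), the sperm form, was at 769 and 672 CPM in TSSK2-IP and at 2002 and 993 CPM in control IgG-IP. All of its TSSK2-IP values were below all control values, and the controls were 1.01 apart on the log2 scale. The log2 fold change was -1.06 (SE 0.83, adjusted p = 0.575), about as large as the gap between the controls. Gapdh (ENSMUSG00000057666, chr6:125161715-125166467, minus strand) was far lower, with 75 and 54 counts in TSSK2-IP and 108 and 77 in control IgG-IP. That came to 15.5 and 10.3 CPM against 16.9 and 17.7 CPM, so the groups did not overlap, and the controls were nearly equal. Its log2 fold change was -0.42 (SE 0.43, adjusted p = 0.674).

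Phosphoglycerate kinase makes the first ATP of the pathway. Pgk2 (ENSMUSG00000031233, chr17:40207015-40208640, minus strand, 1 exon) was at 289.8 and 302 CPM in TSSK2-IP and at 1245 and 401 CPM in control IgG-IP. Both TSSK2-IP values lay below both controls. The log2 fold change of -1.48 (SE 0.74, adjusted p = 0.402) was the lowest of the 10, and the controls differed by 1.63 on the same scale. Pgk1 (ENSMUSG00000062070, chrX:106187100-106203699, plus strand) was the only one of the 10 with a positive fold change. Its counts were 52 and 64 in TSSK2-IP and 19 and 54 in control IgG-IP, or 10.8, 12.2, 2.96 and 12.4 CPM. The low value of control replicate 1 stood alone, and control replicate 2 was above both TSSK2-IP libraries. The log2 fold change was 0.61 (SE 0.59, adjusted p = 0.659).

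Enolase makes phosphoenolpyruvate, and Eno4 encodes a member of this family found in the sperm flagellum. Eno4 (ENSMUSG00000048029, chr19:58943425-58971421, plus strand) was at 72.6 and 73.8 CPM in TSSK2-IP and at 86.1 and 63.9 CPM in control IgG-IP. The TSSK2-IP values fell between the controls. Its log2 fold change of -0.04 (SE 0.42, adjusted p = 0.980) was the smallest in size of the 10.

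Lactate dehydrogenase regenerates NAD+ by turning pyruvate into lactate. Ldhc (ENSMUSG00000030851, chr7:46861203-46878142, plus strand), the germ cell isoform, was at 1128 and 1284 CPM in TSSK2-IP and at 2090 and 1018 CPM in control IgG-IP. The groups overlapped, since control replicate 2 was the lowest of the 4 libraries, and the log2 fold change was -0.37 (SE 0.88, adjusted p = 0.882). Ldha (ENSMUSG00000063229, chr7:46841475-46855627, plus strand) lies 5575 bases from Ldhc. It was at 373 and 328 CPM in TSSK2-IP and at 1421 and 412 CPM in control IgG-IP, which put both TSSK2-IP libraries below both controls. Its log2 fold change was -1.39 (SE 0.78, adjusted p = 0.435), and its controls differed 3.45-fold, the widest upward gap of control replicate 1 among the 10.

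These values moved with the control library used. Without control IgG-IP replicate 1, log2 fold changes lay between -0.50 (Hk1) and 0.30 (Ldhc), their median was -0.25, and none of the 10 was called, while 5.38% of 16620 genes were called higher and 2.56% lower in the whole table. Without control IgG-IP replicate 2, Gapdhs (-1.54), Pgk2 (-2.14), Ldha (-2.09), Aldoart1 (-1.99), Aldoa (-1.16) and Hk1 (-1.90) were called lower and Pgk1 (1.88) higher. In that fit 17.9% of 15406 genes were called higher and 17.4% lower. The single control left in each of these fits was assumed to vary like the TSSK2-IP group.

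**Figure D2:**
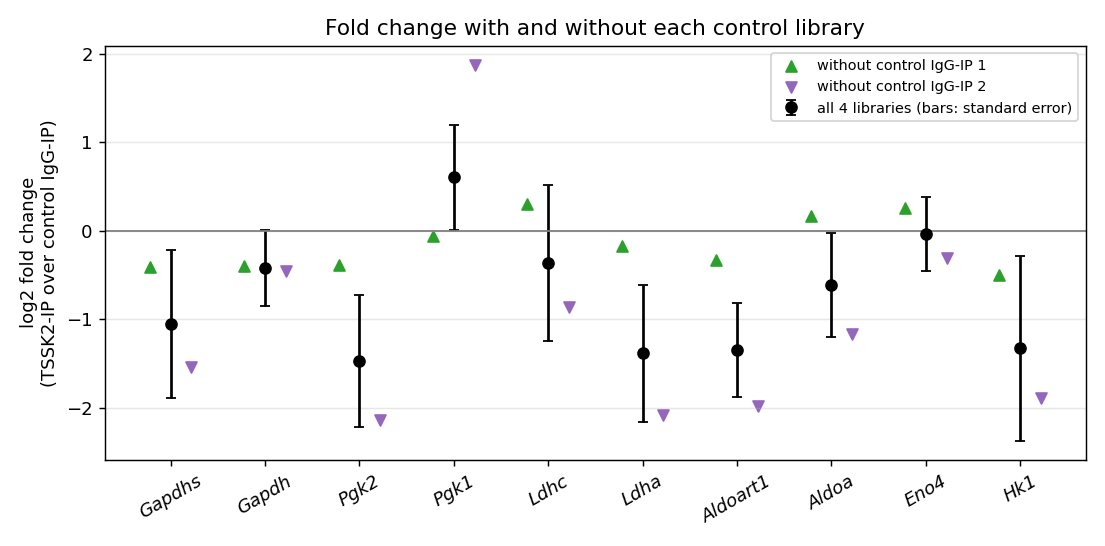
Log2 fold change of TSSK2-IP over control IgG-IP for each enzyme mRNA, with all 4 libraries (error bars are standard errors) and with either control library left out. Pgk2 moves from -0.38 without control replicate 1 to -2.14 without control replicate 2, and Gapdh stays between -0.46 and -0.40.

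Levels can be set against each other only per length, here as CPM per kilobase of annotated exon. In TSSK2-IP the order was Ldhc at 763 ± 69.9 (SD, n = 2), Gapdhs at 447 ± 43.0, Pgk2 at 182 ± 5.37, Hk1 at 153 ± 4.73, Ldha at 106 ± 9.72, Aldoa at 66.1 ± 1.01, Aldoart1 at 29.97 ± 0.0998, Eno4 at 28.5 ± 0.350, Pgk1 at 5.12 ± 0.441 and Gapdh at 3.12 ± 0.902. No neighbours in that order had overlapping ranges. The order of the middle depended on the length used. Per kilobase of the transcript with the longest coding sequence, an alternative chosen after seeing the data, Hk1 was at 359 ± 11.1 and Ldha at 193 ± 17.7, above Pgk2 at 182 ± 5.37, with the ranges of Ldha and Pgk2 overlapping, and Gapdh at 10.1 ± 2.93 was above Pgk1 at 6.29 ± 0.542. Ldhc and Gapdhs remained in front. Per kilobase of exon, Ldhc and Gapdhs ranked 6th and 10th of 14710 genes, so the sperm isoforms of 2 steps were among the most abundant mRNAs of the immunoprecipitate, while Pgk1 and Gapdh ranked 6668th and 8290th. On that scale the control IgG-IP order was the same down to Eno4, from Ldhc at 983 ± 480 (SD, n = 2) and Gapdhs at 930.0 ± 443 to Eno4 at 29.2 ± 6.12. Gapdh followed at 4.18 ± 0.144 and Pgk1 at 3.43 ± 2.98. There the ranges of neighbours overlapped except between Aldoart1 and Eno4 and between Eno4 and Gapdh. Ldhc and Gapdhs ranked 10th and 13th in the controls.

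A ratio of germ cell isoform to somatic counterpart within a library is free of the scaling between libraries. The 6 pairs were compared with counts raised by 0.5 and a two-sided exact permutation test whose smallest possible p is 0.333. Ldhc had 3.02 and 3.92 times the counts of Ldha in TSSK2-IP and 1.47 and 2.47 times in control IgG-IP. The ranges did not overlap, and the mean log2 ratio was 0.85 higher in TSSK2-IP (exact p = 0.333). Eno4 over Eno1 was 0.519 and 0.585 in TSSK2-IP and 0.155 and 0.318 in control IgG-IP, a log2 difference of 1.31 in the same direction (exact p = 0.333). The aldolases went the other way, with Aldoart1 over Aldoa at 0.316 and 0.324 in TSSK2-IP and 0.565 and 0.454 in control IgG-IP, a log2 difference of -0.66 (exact p = 0.333). Pgk2 over Pgk1 was 26.6 and 24.6 in TSSK2-IP and 409 and 32.1 in control IgG-IP, without overlap, but its log2 SD was 2.60 in the controls and 0.08 in TSSK2-IP. Gapdhs over Gapdh was 49.2 and 64.8 in TSSK2-IP and 118 and 55.7 in control IgG-IP, where the groups overlapped (exact p = 0.667). The ratio of Pdha2 to Pdha1, the retrogene and X-linked forms of a pyruvate dehydrogenase subunit, also overlapped, at 151, 112, 243 and 58.9 (exact p = 1), and Pdha1 had at most 10 counts in a library. Of the 6 pairs, 4 were without overlap, 2 of them higher and 2 lower in TSSK2-IP. Each of the 4 had an exact p of 0.333, the share of possible groupings of the libraries that differ as much. The number of such pairs was not set against that of other gene pairs. With 2 libraries a group none could pass the test.

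**Figure D3:**
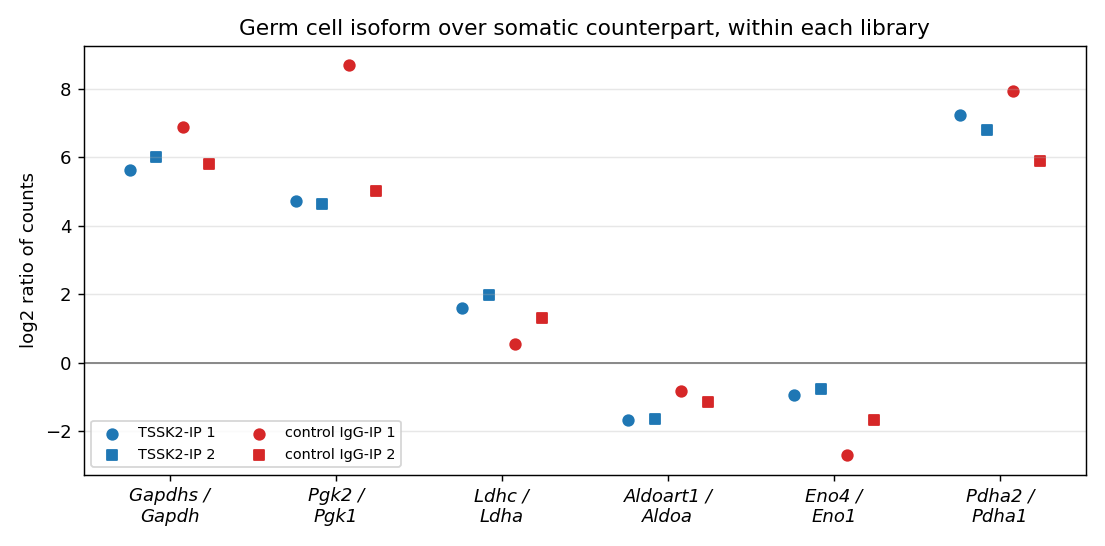
Log2 ratio of germ cell isoform counts to somatic counterpart counts within each library for 6 pairs, with TSSK2-IP in blue and control IgG-IP in red, circles for replicate 1 and squares for replicate 2. Ldhc over Ldha and Eno4 over Eno1 are higher in both TSSK2-IP libraries, Aldoart1 over Aldoa is lower, and Pgk2 over Pgk1 has one control far above the rest.

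The other glycolysis genes were read from a list of 30, of which 28 passed the filter on low counts and were tested. None was called in either direction, and the median log2 value was -0.46. Of the 28, 9 had a positive and 19 a negative fold change, beside 7243 and 7479 of all genes tested. At an unadjusted p under 0.05 by the edgeR test, 2 of the 28 were higher and 3 lower, where 8.34% of all genes tested were higher and 4.89% lower. Pfkfb2, a bifunctional enzyme that sets the level of fructose 2,6-bisphosphate, was at 75.3 and 88.1 CPM in TSSK2-IP and at 20.1 and 38.4 CPM in control IgG-IP. All its TSSK2-IP values were above the controls, with a log2 fold change of 1.49 (SE 0.44, adjusted p = 0.192), but 1262 of its 7254 exon bases are shared with Gm29427 on the same strand. Eno1, the general enolase, was at 140 and 126 CPM in TSSK2-IP and at 557 and 201 CPM in control IgG-IP, with a log2 fold change of -1.51 (SE 0.62, adjusted p = 0.332). The phosphoglycerate mutase Pgam1 was at 8.09 and 7.23 CPM in TSSK2-IP and at 1.40 and 3.68 CPM in control IgG-IP, with a log2 fold change of 1.62 (SE 0.67, adjusted p = 0.335). The other two lower genes, named after their values were seen, were Pgam2 at -1.54 (adjusted p = 0.349), the muscle form of that mutase, and the triose isomerase Tpi1 at -1.35 (adjusted p = 0.357). Thus Pgam1 and Pgam2, which catalyse the same step, had fold changes of opposite sign, and neither passed the adjusted threshold. Pgam1 rested on few counts, 39 and 38 in TSSK2-IP and 9 and 16 in control IgG-IP. Stretches that these mutase genes may share with other genes were not searched for.

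Further single-exon copies, also named after their values were seen, were read beside Aldoart1 and Pgk2. Aldoart2, 91.8% identical to Aldoa in its coding sequence, was at 144 and 142 CPM in TSSK2-IP and at 435 and 185 CPM in control IgG-IP. Its log2 fold change was -1.11 (SE 0.58, adjusted p = 0.412). Pdha2 was at 141 and 181 CPM in TSSK2-IP and at 171 and 142 CPM in control IgG-IP. Its log2 fold change of 0.04 (SE 0.49, adjusted p = 0.980) was too small against its SE to give a direction. Ldhal6b, a lactate dehydrogenase retrogene, was at 256 and 288 CPM in TSSK2-IP and at 797 and 258 CPM in control IgG-IP. Its log2 fold change was -0.96 (SE 0.69, adjusted p = 0.535). Pdha2 aside, the single-exon genes named here had negative fold changes, and none was called. An antisense gene covers all of Ldhal6b, so its reads cannot be told apart from that gene's if the counting ignored strand.

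A list of 38 genes for sugar and lactate transport, pyruvate use and flagellar energy supply had 35 tested members. None was called, and the median log2 value was -0.23. Of the 35, 13 had a positive and 22 a negative fold change, beside 7243 and 7479 of all genes tested. The 3 with the smallest p were all lower. Pdk2, a kinase that turns off pyruvate dehydrogenase, was at 88.5 and 71.0 CPM in TSSK2-IP and at 414 and 117 CPM in control IgG-IP, with a log2 fold change of -1.74 (SE 0.62, adjusted p = 0.272). The malic enzyme Me1 was at 129 and 128 CPM in TSSK2-IP and at 566 and 152 CPM in control IgG-IP, with a log2 fold change of -1.48 (SE 0.65, adjusted p = 0.357). Slc2a5, a fructose transporter present on sperm, was at 385 and 346 CPM in TSSK2-IP and at 2089 and 564 CPM in control IgG-IP, with a log2 fold change of -1.86 (SE 0.85, adjusted p = 0.366). In each of them control replicate 1 was again the highest library by a wide margin.

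**Figure D4:**
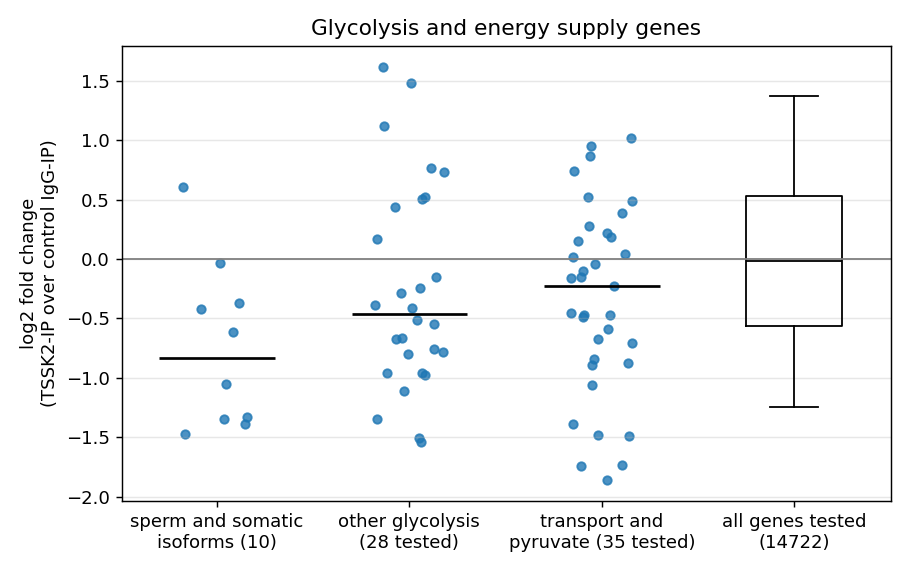
Log2 fold change of TSSK2-IP over control IgG-IP for the 10 isoforms, the 28 other glycolysis genes and the 35 transport and pyruvate genes as points with lines at the medians, beside all 14722 genes tested (box from the lower to the upper quartile, whiskers from the 5th to the 95th percentile). The medians are -0.84, -0.46, -0.23 and -0.02.

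The mean profile of the 5 germ cell isoforms over the 4 libraries, on centred log2 CPM, was -0.38 and -0.36 in TSSK2-IP and 0.93 and -0.20 in control IgG-IP. The 5 genes closest to it among 4038 were Hsdl2, 1700009N14Rik, Ranbp10, Mul1 and St13, with Euclidean distances of 0.0396 to 0.0463. The isoforms themselves lay further from their own mean, from 0.29 for Gapdhs to 0.87 for Eno4. Being picked as the nearest of many over 4 libraries, such genes were bound to lie close.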

How the data were processed

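RNA from 2 TSSK2-IP and 2 control IgG-IP samples was sequenced as directional libraries without rRNA removal. Per the submitters' processing notes, Trimmomatic 0.39, STAR 2.7.10a and featureCounts 2.0.3 were used with GRCm38, and the authors deposited raw counts per gene without normalization. Names came from GENCODE vM21, which held 21817 of the 21936 identifiers. edgeR 4.0.16 (R 4.3.3) was run on the whole table (filterByExpr, TMM, glmQLFit, glmQLFTest), and each standard error is the fold change on the log2 scale divided by the square root of F. The common dispersion was 0.135. Calls used the study's thresholds. Coding sequences were aligned with Biopython 1.88 and near-identical stretches of other genes were found with BLAST+ 2.17.0. The edgeR standard errors take in variation between libraries as well as counting error.

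The enzymes and lists were chosen with earlier results of these data known. The text names all 10 enzymes, the 3 genes with the smallest p in each list and the 5 genes with the most similar profile. Pgam2, Tpi1, Aldoart2, Ldhal6b, Pdha2 and the markers Akap4, Prm2 and Mael fall outside that rule and were named after their values were seen. Alternatives were DESeq2 1.42.0, its size factors, upper-quartile normalization, no filter, at least 10 counts in every library, a replicate block, a pseudocount of 5 for the ratios, and leaving out each library. A transcript length for the levels was added after seeing the data. Immunoprecipitates of DDX4 were not analysed here.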

Additional observations from a re-analysis of the deposited data

How the results depend on the processing

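The count of genes called higher, 102, was 6 with DESeq2, 20 with upper-quartile normalization, 283 without a filter, 29 with at least 10 counts in every library and 23 to 2755 with a library left out. The count called lower, 0, was 24 without a filter and 0 to 2688 with a library left out. Of the 10 enzymes, 0 to 1 were called higher and 0 to 6 lower when a library was left out, and 0 in either direction under the other alternatives. Under DESeq2, Gapdh, Pgk1, Aldoart1 and Eno4 had no adjusted p and could not be called. The difference of replicate 1 from replicate 2 correlated weakly between the groups (r = 0.13 over 14722 genes, 2 libraries a group). Same-numbered libraries were not taken as pairs in the main test. Whether they shared a lysate is not stated, and this correlation cannot settle it. With the replicate number as a block, 274 genes were called higher and 3 lower, and the fold changes ran from -1.26 for Pgk2 to 0.86 for Pgk1. Without control IgG-IP replicate 1 the sign turned for Pgk1 (-0.054), Ldhc (0.30), Aldoa (0.17), Eno4 (0.25) and the ratio of Gapdhs to Gapdh (0.017). Eno4 was at 0.034 with at least 10 counts in every library. The ratio of Pdha2 to Pdha1 turned to -0.10 without TSSK2-IP replicate 1 and to -0.90 without control IgG-IP replicate 2. With a library left out, log2 fold changes ranged from -1.54 to -0.41 for Gapdhs, -0.76 to -0.16 for Gapdh, -2.14 to -0.38 for Pgk2, -0.054 to 1.88 for Pgk1, -0.86 to 0.30 for Ldhc, -2.09 to -0.18 for Ldha, -1.99 to -0.33 for Aldoart1, -1.16 to 0.17 for Aldoa, -0.30 to 0.25 for Eno4 and -1.90 to -0.50 for Hk1. The ratio differences ranged from -1.07 to 0.017 for Gapdhs, -4.00 to -0.32 for Pgk2, 0.48 to 1.23 for Ldhc, -0.82 to -0.50 for Aldoart1, 0.79 to 1.83 for Eno4 and -0.90 to 1.14 for Pdha2. The median of the other glycolysis genes, -0.46, was -0.57 with DESeq2, -0.60 with its size factors and -0.65 to -0.17 with a library left out. That of the transport and pyruvate genes, -0.23, was -0.45 with DESeq2 and -0.50 to -0.044 with a library left out. DESeq2 shifted the median of all genes to -0.20 and its size factors to -0.14. The causes were not tested.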
